A study of Sus scrofa with 12 samples.

Results

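The genes described here build the sarcomere, the contractile unit of striated muscle, and hold its filaments at the Z-disc and the M-band. The list holds 46 pig genes, chosen by name for this function, with earlier results of these data known. They are 10 of the thin filament, 10 of the thick filament, 5 of titin and the M-band, 11 of the Z-disc, 4 Xin-repeat and attachment adaptors, and 6 assembly chaperones and ligase adaptors. Myosin heavy chains and troponins are not among them. Of the 46, 40 were found by gene name in a table of 31908 genes, and ACTA1 and MYOM2 were found by identifier through the pig reference table. TTN, LMOD3, TMOD1 and MYL6B were not analysed here. Of the 42 with values, 35 passed the filter on low values (at least 1 FPKM in at least 3 libraries, where FPKM divides reads by gene length and by the library total) and were tested among 11636 genes.

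A sarcomere runs from one Z-disc to the next. At the Z-disc, alpha-actinin crosslinks the barbed ends of actin thin filaments and the ends of titin, and desmin ties neighbouring Z-discs together. Bipolar myosin thick filaments sit between the thin filaments and are crosslinked at the M-band by the myomesins. The chaperone UNC45B folds myosin during assembly, and the methyltransferase SMYD1 is needed for thick filament assembly in zebrafish. Differentiating myoblasts are known to start from immature fibrils that hold cardiac actin and embryonic light chains, and to replace many of these proteins with adult forms as the muscle matures.

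The 12 RNA-seq libraries came from pig muscle satellite cells, the stem cells that repair skeletal muscle, and form 4 groups of 3 replicates. Cells of an arm named CBP and cells of an arm named WT (NC in the column names) were collected at 0h, labelled proliferation, and at 60h, labelled differentiation. CBP was read as treatment with SGC-CBP30, a compound that occupies the bromodomains of CBP and of p300, labelled at 5 uM per ml for 48 h of proliferation and 60 h of differentiation. That protocol text stands on every sample, WT included, the arm and stage names stand under a genotype tag, and no control treatment is stated. The cell line is labelled C3H in all groups, a name usual for mouse, while organism and genome are pig. No label says that replicates came from separate cultures, so p-values measure the spread between these samples, which may be technical.

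Libraries held 16095335 to 19155240 reads. The first principal component of all tested genes held 49.4% of the variance and separated the stages, and the second held 34.9% and separated the arms. Of 7 satellite cell and myoblast markers tested, 7 were lower in CBP cells than in WT cells at 0h, against 18.1% of all tested genes. PAX7 and MYF5 were among those present in all groups. PAX7 averaged 8.88 ± 0.271 FPKM in CBP cells and 14.4 ± 0.145 in WT cells at 0h (SD, n = 3 in each group), and MYF5 averaged 115 ± 6.71 FPKM in CBP cells and 136 ± 4.91 in WT cells. Other markers of the list were further apart at 0h. MYOG averaged 28.5 ± 0.996 FPKM in CBP cells and 343 ± 10.0 in WT cells, MYMK 3.81 ± 0.756 and 34.5 ± 4.65, and CDH15 19.1 ± 1.27 and 56.0 ± 0.915. The untested CHODL averaged at most 0.628 FPKM in any group. Rescaling libraries by the median of ratios moved the median log2 change of all tested genes from 0.12 to 0.00 at 0h and from 0.10 to -0.01 at 60h, and the share of higher calls among calls from 71% to 49.1% at 0h and from 62.4% to 47.8% at 60h. Lower calls went from 2102 to 3095 genes at 0h and from 3137 to 4192 at 60h, and higher calls from 5148 to 2987 and from 5200 to 3834. The shares of all tested genes given here are those without rescaling.

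Most sarcomere assembly genes were lower in CBP cells than in WT cells at both stages, and the gap was narrower for most of them at 60h. Their summed level per length was 2464 to 2622 FPKM in CBP cells and 8217 to 8589.5 FPKM in WT cells at 0h, and 5792 to 6172 FPKM in CBP cells and 8374 to 8813 FPKM in WT cells at 60h. ACTC1 alone made up 29.4% to 30.8% of that sum in CBP cells and 45.0% to 46.3% in WT cells at 0h. Without ACTC1 the sum was 1741 to 1814 FPKM in CBP cells and 4518 to 4611 FPKM in WT cells at 0h, and 2657 to 2779 FPKM in CBP cells and 4525 to 4828 FPKM in WT cells at 60h. In bulk RNA, fewer muscle-forming cells and less RNA per cell cannot be told apart.

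Of the 35 tested members, 33 fell in CBP cells at 0h, against 18.1% of all tested genes, TPM3 rose, against 44.2% of all tested genes, and ACTN3 did not pass the test (limma, adjusted p under 0.05 over all tested genes). Their median log2 change was -2.00, and that of all tested genes was 0.12. At 60h, 31 fell, against 27.0% of all tested genes, OBSL1 and MYL4 rose, against 44.7%, and ACTN2 and TPM1 did not pass. The median was -1.19 for the members and 0.10 for all tested genes. Members that fell at both stages numbered 29, against 12.1% of all tested genes. LMOD2, ACTN3, TCAP and SMPX entered the test only through their values in WT cells at 60h, and the first 3 of these leave it when any 1 of those WT libraries is left out. Among the other 31 members, 30 fell at 0h with a median of -2.25, and 27 fell at 60h with a median of -1.18. Of these 31, LDB3 and MYOM2 passed the filter only with WT libraries counted, so their lower calls are not independent of it. In CBP cells at 60h, LDB3 stood at 0.166, 0.153 and 0.192 FPKM and MYOM2 at 1.06, 0.885 and 1.00 FPKM, and both were lower still at 0h.

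The CBP mean was under 10% of the WT mean for 17 tested members at 0h, against 0.584% of all tested genes, and for 4 at 60h (XIRP2, TCAP, LMOD2 and SMPX), against 1.08% of all tested genes. TCAP, LMOD2 and SMPX entered the test only through the high WT level at 60h. Among the other 31 members, 15 were under 10% at 0h and 1 (XIRP2) at 60h. The 15 include LDB3 and MYOM2, which passed the filter only with WT libraries counted. At 60h, 20 members stood between 10% and 50% of WT and 11 stood at 50% or more, while 7.90% of all tested genes were under 50%. The ratio of the CBP mean to the WT mean was closer to 1 at 60h than at 0h for 29 of the 35 members, against 38.6% of all tested genes. The exceptions were LMOD2, MYL2, ACTN3, TCAP, XIRP2 and SMPX, and among the 31 they were MYL2 and XIRP2.

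**Figure D1:**
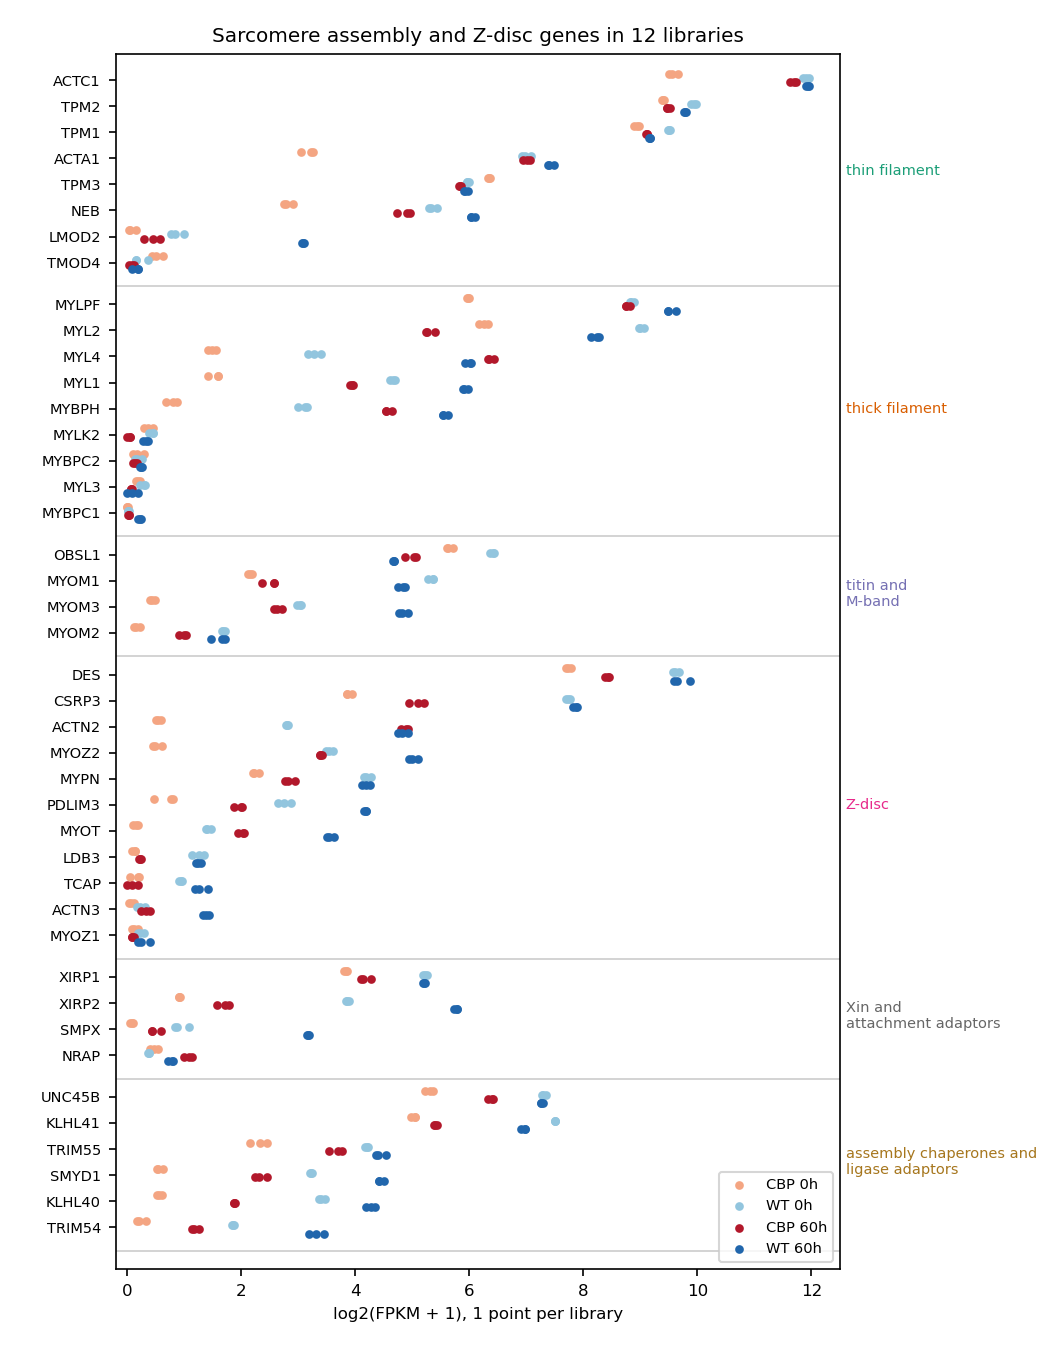
Levels of the 42 members with values, as log2(FPKM + 1), with 1 point per library, coloured by group and ordered within each role by mean level. ACTC1 stands highest at 3135 to 3393 FPKM in CBP cells and 3849 to 3984 FPKM in WT cells at 60h, and the 7 untested members reach at most 1.21 FPKM in any library.

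**Figure D2:**
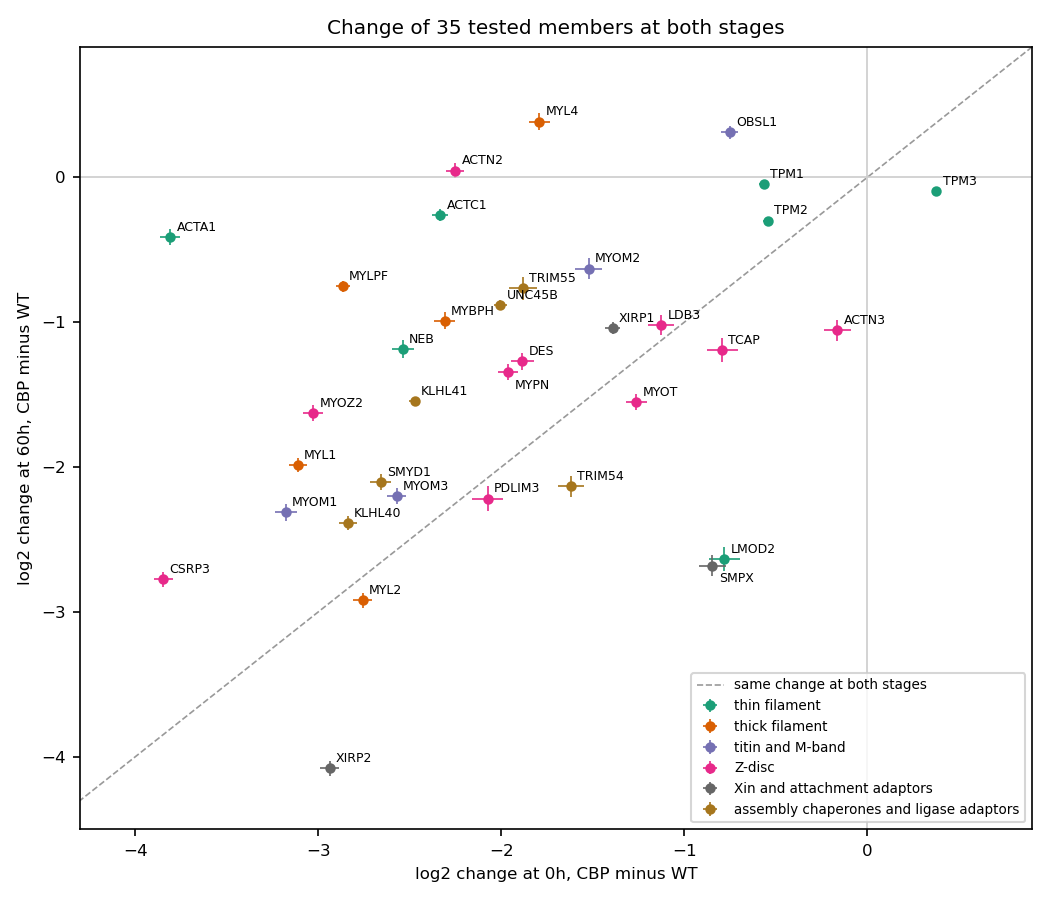
Log2 change of CBP minus WT at 0h (horizontal axis) and at 60h (vertical axis) for the 35 tested members, with bars of 1 SE and colours by role. Points above the dashed line, on which both changes are the same, were less reduced at 60h. ACTA1, ACTN2, MYL4 and MYLPF lie far above it, and XIRP2, LMOD2 and SMPX lie below it.

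Sarcomeric actins, nebulin and leiomodin 2 were far lower in CBP cells at 0h, while the tropomyosins changed less. Of 7 tested, 6 fell and 1 rose in CBP cells at 0h (median log2 change -0.78), and 6 fell at 60h (median -0.30). The shares over all tested genes were 18.1% lower and 44.2% higher at 0h, and 27.0% lower at 60h. Without LMOD2 the medians were -1.45 at 0h and -0.28 at 60h. Skeletal actin ACTA1 (ENSSSCG00000010190, chromosome 14, 60412651 to 60415687 in Sscrofa11.1) stood at 7.33, 8.42 and 8.56 FPKM in CBP cells and 121, 125 and 134 FPKM in WT cells at 0h (log2 change -3.81, SE 0.056, limma adjusted p = 2.86e-13). After 60h it was at 122, 128 and 133 FPKM in CBP cells and 178, 165 and 168 FPKM in WT cells (log2 change -0.41, SE 0.056, limma adjusted p = 3.17e-05). CBP cells thus held 6.40% of the WT mean at 0h and 75.0% at 60h, with no overlap between arms at either stage. Cardiac actin ACTC1 (ENSSSCG00000004803, chromosome 1, 136281119 to 136286551), the main sarcomeric actin of immature muscle, was the most abundant member. It stood at 753, 724 and 808 FPKM in CBP cells and 3698, 3844 and 3979 FPKM in WT cells at 0h (log2 change -2.33, SE 0.044, limma adjusted p = 2.12e-12). By 60h its level was 3312, 3135 and 3393 FPKM in CBP cells and 3984, 3849 and 3946 FPKM in WT cells (log2 change -0.26, SE 0.044, limma adjusted p = 2.05e-04), a gap that went to 0.00 with an adjusted p of 0.962 in limma after quantile scaling. Quantile scaling gives genes of equal rank the same value, so it can remove a gap in a very abundant gene and cannot judge this one. ACTA1, ACTC1 and the smooth muscle actins ACTA2 and ACTG2 encode near-identical proteins, so the authors' counting could have split or shared their reads where the gene sequences match. ACTA2 averaged 819 ± 26.8 FPKM in CBP cells and 2571 ± 55.5 FPKM in WT cells at 0h, and 1558 ± 52.0 FPKM in CBP cells and 2567 ± 13.2 FPKM in WT cells at 60h, and its part in the actin results was not tested.

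Nebulin, which helps to set thin filament length, stood further below WT at 60h than the actins. NEB (ENSSSCG00000016397, chromosome 15, 546187 to 766131), the giant protein that lies along the thin filament, stood at 5.89, 5.78 and 6.49 FPKM in CBP cells and 42.1, 38.5 and 39.4 FPKM in WT cells at 0h (log2 change -2.54, SE 0.061, limma adjusted p = 1.76e-11). At 60h it stood at 29.2, 25.5 and 30.4 FPKM in CBP cells and 64.7, 67.9 and 64.2 FPKM in WT cells (log2 change -1.18, SE 0.061, limma adjusted p = 5.66e-09). LMOD2 (ENSSSCG00000016605, chromosome 18, 23803927 to 23815772), which nucleates and elongates actin at the pointed end, was close to absent in CBP cells at 0h, with 0.0433, 0.0215 and 0.123 FPKM from 2, 1 and 5 reads, against 0.704, 0.994 and 0.791 FPKM in WT cells. After 60h it was at 0.235, 0.378 and 0.499 FPKM in CBP cells and 7.45, 7.43 and 7.61 FPKM in WT cells (log2 change -2.64, SE 0.084, limma adjusted p = 8.68e-11), and these WT libraries are also what brought LMOD2 into the test. The tropomyosins lie along actin and gate its access to myosin. TPM1 stood at 67.5% and TPM2 at 68.5% of the WT mean at 0h, and at 96.8% and 81.3% at 60h, where the change of TPM1 (log2 change -0.05, SE 0.024, limma adjusted p = 0.108) did not pass but was called lower after median-of-ratios scaling (log2 change -0.18, limma adjusted p = 6.89e-05). TPM3, a tropomyosin of slow muscle and of many non-muscle cells, went the other way at 0h, with 79.5, 81.6 and 80.4 FPKM in CBP cells and 62.6, 61.1 and 61.6 FPKM in WT cells (log2 change 0.38, SE 0.025, limma adjusted p = 1.05e-07). At 60h TPM3 stood at 56.4 ± 0.661 FPKM in CBP cells and 60.4 ± 1.52 FPKM in WT cells (log2 change -0.10, SE 0.025, limma adjusted p = 0.00404).

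Thick filament light chains were strongly lower in CBP cells at 0h and diverged from each other at 60h. All 5 thick filament genes tested fell at 0h (median log2 change -2.76), and at 60h 4 fell and MYL4 rose (median -0.99). Over all tested genes, 18.1% fell at 0h, and 27.0% fell and 44.7% rose at 60h. MYLPF (ENSSSCG00000007799, chromosome 3, 17938129 to 17941071), the regulatory light chain of fast muscle and the most abundant of the class, stood at 62.6, 61.8 and 61.6 FPKM in CBP cells and 449, 455 and 473 FPKM in WT cells at 0h (log2 change -2.87, SE 0.038, limma adjusted p = 1.17e-13). By 60h its level was 429.8, 431 and 452 FPKM in CBP cells and 786, 711 and 717 FPKM in WT cells (log2 change -0.75, SE 0.038, limma adjusted p = 4.67e-09). The arms did not overlap at either stage, and CBP cells held 13.5% of the WT mean at 0h and 59.3% at 60h. MYL1 (ENSSSCG00000016157, chromosome 15, 113038083 to 113051315), the essential light chain of fast muscle, stood at 1.69, 2.04 and 2.02 FPKM in CBP cells and 23.4, 24.9 and 24.3 FPKM in WT cells at 0h (log2 change -3.11, SE 0.049, limma adjusted p = 4.94e-13), and at 14.6, 14.0 and 14.3 FPKM in CBP cells and 62.2, 58.8 and 58.0 FPKM in WT cells at 60h (log2 change -1.99, SE 0.049, limma adjusted p = 1.09e-11).

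MYL4 and MYL2 took opposite courses. MYL4 (ENSSSCG00000017307, chromosome 12, 16774655 to 16792213), the essential light chain of atrial and embryonic muscle, stood at 1.93, 1.82 and 1.69 FPKM in CBP cells and 8.02, 8.66 and 9.63 FPKM in WT cells at 0h (log2 change -1.79, SE 0.059, limma adjusted p = 2.75e-10). At 60h it stood at 79.4, 80.1 and 86.0 FPKM in CBP cells and 59.6, 63.5 and 64.3 FPKM in WT cells (log2 change 0.39, SE 0.059, limma adjusted p = 8.61e-05), and the lowest CBP library lay above the highest WT library. MYL2 (ENSSSCG00000039710, chromosome 14, 32205953 to 32213848), the regulatory light chain of slow and cardiac ventricular muscle, stood at 71.1, 75.7 and 79.3 FPKM in CBP cells and 509.6, 505 and 531 FPKM in WT cells at 0h (log2 change -2.76, SE 0.051, limma adjusted p = 1.87e-12). At 60h MYL2 stood at 37.4, 36.8 and 41.2 FPKM in CBP cells and 300.2, 282 and 310.1 FPKM in WT cells (log2 change -2.92, SE 0.051, limma adjusted p = 8.60e-13), so that it remained at 12.9% of the WT mean. The interaction of MYL2 (log2 change -0.16, SE 0.072, limma adjusted p = 0.0813) did not pass. It was called negative with the replicate number as a block (limma adjusted p = 0.0174) and after quantile scaling (-0.24, limma adjusted p = 0.0299). The same held without CBP replicate 1 at 0h (-0.20), CBP replicate 3 at 60h (-0.21) or WT replicate 2 at 60h (-0.20). MYBPH, a myosin-binding protein related to the C proteins, averaged 0.729 ± 0.120 FPKM in CBP cells and 7.57 ± 0.500 FPKM in WT cells at 0h, and 22.9 ± 1.09 FPKM in CBP cells and 46.5 ± 1.67 FPKM in WT cells at 60h, and fell at both stages (log2 change -2.31 at 0h and -0.99 at 60h).

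The myomesins, which crosslink thick filaments at the M-band, fell at both stages, while OBSL1 changed direction. Of the 4 M-band genes tested, 4 fell at 0h (median log2 change -2.05), and 3 fell and OBSL1 rose at 60h (median -1.41). Among all tested genes, 18.1% fell at 0h, and 27.0% fell and 44.7% rose at 60h. MYOM1 (ENSSSCG00000003693, chromosome 6, 103451206 to 103593093), the myomesin of all striated muscle, stood at 3.55, 3.34 and 3.49 FPKM in CBP cells and 37.9, 40.0 and 40.0 FPKM in WT cells at 0h (log2 change -3.18, SE 0.058, limma adjusted p = 1.76e-12). After 60h it was at 4.94, 4.14 and 5.00 FPKM in CBP cells and 25.8, 27.6 and 28.3 FPKM in WT cells (log2 change -2.31, SE 0.058, limma adjusted p = 1.43e-11). Its level in CBP cells was thus 8.79% of WT at 0h and 17.2% at 60h. MYOM3 stood at 5.12% of WT at 0h and 19.0% at 60h, and MYOM2, the M-protein, stood at 5.54% and 47.3% with a WT level near 2 FPKM (2.22 at 0h and 2.08 at 60h). MYOM2 passed the filter only with WT libraries counted. OBSL1 (ENSSSCG00000028052, chromosome 15, 121560009 to 121581314), an obscurin relative that binds titin and myomesin and that also serves non-muscle cells, stood at 48.4, 48.1 and 51.4 FPKM in CBP cells and 85.1, 81.7 and 84.5 FPKM in WT cells at 0h (log2 change -0.75, SE 0.045, limma adjusted p = 5.20e-08). At 60h OBSL1 stood at 31.5, 28.3 and 32.6 FPKM in CBP cells and 24.5, 24.6 and 24.7 FPKM in WT cells (log2 change 0.31, SE 0.045, limma adjusted p = 5.65e-05), with every CBP library above every WT library.

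At the Z-disc, alpha-actinin 2 overlapped the WT libraries at 60h while the other genes tested were still lower. Of the 10 Z-disc genes tested, 9 fell at 0h (median log2 change -1.92), against 18.1% of all tested genes. At 60h also 9 fell (median -1.31), against 27.0% of all tested genes. Without ACTN3 and TCAP, 8 of 8 fell at 0h and 7 of 8 at 60h (median -1.45). These 8 include LDB3, which passed the filter only through its WT libraries. ACTN2 (ENSSSCG00000010144, chromosome 14, 54670727 to 54742717), which crosslinks actin at the Z-disc, stood at 0.420, 0.454 and 0.521 FPKM in CBP cells and 5.89, 6.05 and 5.98 FPKM in WT cells at 0h (log2 change -2.25, SE 0.049, limma adjusted p = 6.78e-12). By 60h its level was 28.6, 27.1 and 29.5 FPKM in CBP cells and 29.3, 27.1 and 25.98 FPKM in WT cells, and the arms overlapped (log2 change 0.05, SE 0.049, limma adjusted p = 0.407). Its sign at 60h depended on scaling, at -0.08 after median-of-ratios scaling and -0.02 after quantile scaling, with no call under either. CSRP3 (ENSSSCG00000013354, chromosome 2, 40219288 to 40240614), the muscle LIM protein that binds alpha-actinin and telethonin, stood at 13.5, 13.6 and 14.3 FPKM in CBP cells and 216, 207 and 212 FPKM in WT cells at 0h (log2 change -3.85, SE 0.052, limma adjusted p = 1.17e-13). At 60h CSRP3 stood at 29.9, 33.2 and 35.8 FPKM in CBP cells and 233, 224 and 236 FPKM in WT cells (log2 change -2.78, SE 0.052, limma adjusted p = 1.32e-12), which left CBP cells at 14.3% of the WT mean. DES (ENSSSCG00000020785, chromosome 15, 121428539 to 121435426), the intermediate filament protein around Z-discs, stood at 212, 205 and 221 FPKM in CBP cells and 818, 780.2 and 764 FPKM in WT cells at 0h (log2 change -1.88, SE 0.061, limma adjusted p = 2.30e-10). At 60h DES stood at 346, 331 and 350.0 FPKM in CBP cells and 931, 767 and 794 FPKM in WT cells (log2 change -1.27, SE 0.061, limma adjusted p = 2.79e-09), with the first WT library above the other two.

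The other Z-disc genes fell at both stages, except that the call of ACTN3 at 0h changed with the processing. MYOZ2, a calsarcin that tethers calcineurin to the Z-disc, stood at 4.07% of the WT mean at 0h and 30.2% at 60h, and MYOT, which binds alpha-actinin and filamin, stood at 6.77% and 28.0%. MYPN, which links nebulin to alpha-actinin, stood at 21.4% at 0h and 35.9% at 60h. The PDZ-LIM proteins LDB3 and PDLIM3, which bind alpha-actinin, stood at 6.63% and 10.7% at 0h and at 12.4% and 16.9% at 60h. LDB3 was low in every group, with a WT mean of 1.37 ± 0.0736 FPKM at 60h, and passed the filter only through its WT libraries. TCAP, the telethonin that caps titin at the Z-disc, gave 4, 0 and 2 reads in the CBP libraries and 36, 46 and 39 reads in the WT libraries at 60h (log2 change -1.19, SE 0.085, limma adjusted p = 9.68e-08). Both TCAP and ACTN3 entered the test only through their high WT values at 60h. Their tests at 60h are therefore not independent of the filter. ACTN3, the alpha-actinin of fast glycolytic fibres, averaged 0.259 ± 0.0690 FPKM in CBP cells and 1.62 ± 0.102 FPKM in WT cells at 60h (log2 change -1.06, SE 0.074, limma adjusted p = 9.46e-08), while its change at 0h (log2 change -0.16, SE 0.074, limma adjusted p = 0.0758) did not pass. At 0h ACTN3 gave 7, 2 and 4 reads in CBP libraries and 15, 20 and 11 reads in WT libraries, and its FPKM ranges did not overlap. There limma called it lower with a pseudocount of 0.1 (log2 change -0.86, adjusted p = 0.0169), with TPM (-0.39, adjusted p = 0.0226). It was also called without the filter (-0.16, adjusted p = 0.0316) and with voom on recovered reads (-1.71, adjusted p = 0.00475).

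**Figure D3:**
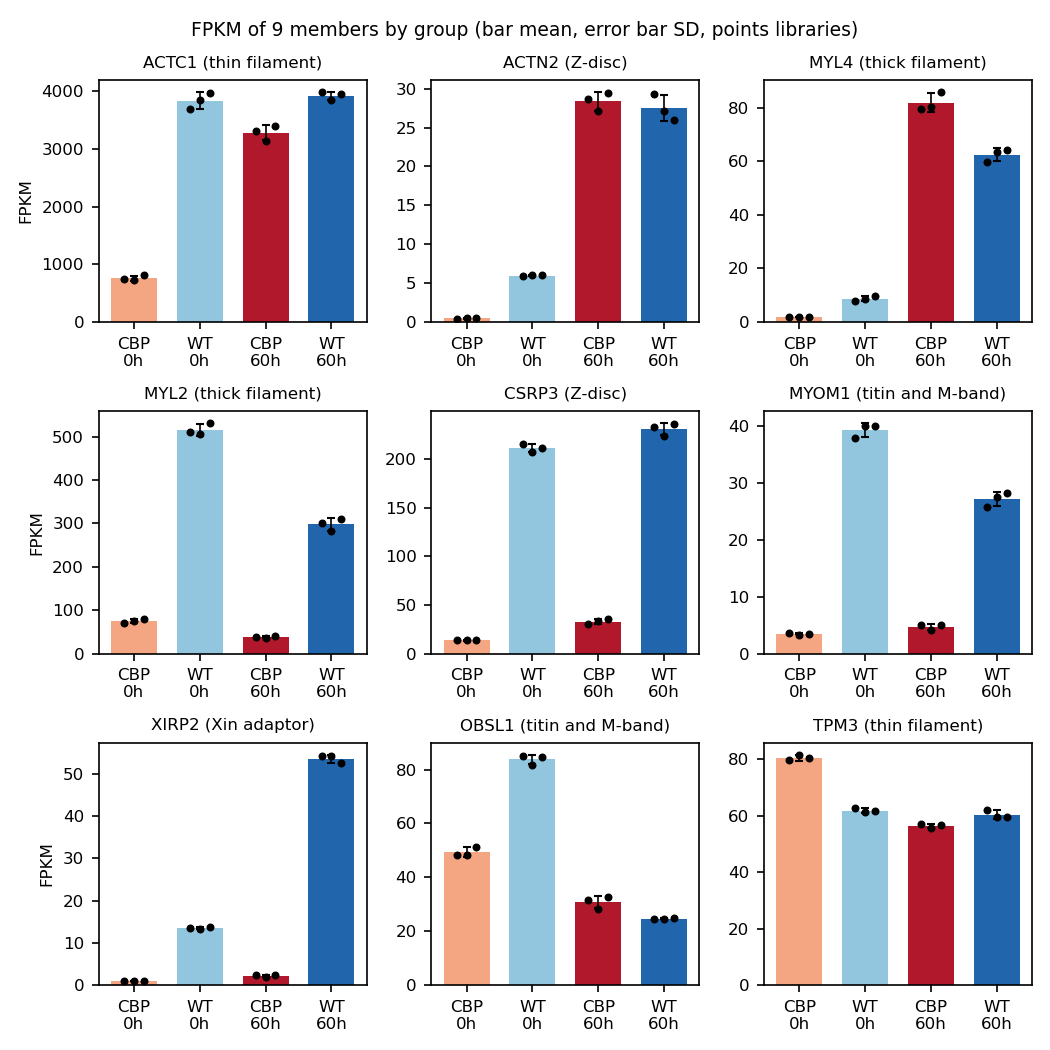
FPKM of 9 members in the 4 groups, with bars for the mean of 3 libraries, error bars of 1 SD and points for libraries. ACTC1, ACTN2 and MYL4 reached 83.5%, 103% and 131% of WT at 60h, MYL2, CSRP3, MYOM1 and XIRP2 stayed at 4.17% to 17.2%, and OBSL1 and TPM3 were on opposite sides of WT at the 2 stages.

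Among the tested members, XIRP2 held the lowest share of the WT level at 60h. All 3 adaptors tested fell at 0h, against 18.1% of all tested genes, and at 60h, against 27.0%. Of the 3, SMPX entered the test only through the WT libraries at 60h. XIRP2 (ENSSSCG00000015917, chromosome 15, 73665876 to 73741046), a large actin-binding repeat protein of striated muscle, stood at 0.889, 0.903 and 0.890 FPKM in CBP cells and 13.4, 13.4 and 13.8 FPKM in WT cells at 0h (log2 change -2.94, SE 0.049, limma adjusted p = 1.06e-12). At 60h it stood at 2.45, 1.97 and 2.29 FPKM in CBP cells and 54.3, 54.2 and 52.5 FPKM in WT cells (log2 change -4.08, SE 0.049, limma adjusted p = 4.77e-14). XIRP2 was higher at 60h than at 0h in WT cells by a log2 change of 1.91 and in CBP cells by 0.77, so CBP cells stood at 6.61% of the WT mean at 0h and 4.17% at 60h. XIRP1 (ENSSSCG00000034015, chromosome 13, 23867476 to 23876850), its paralog, was less reduced, with 13.0, 13.5 and 13.3 FPKM in CBP cells and 35.6, 36.5 and 37.4 FPKM in WT cells at 0h (log2 change -1.39, SE 0.042, limma adjusted p = 1.20e-10). At 60h XIRP1 stood at 16.5, 16.2 and 18.4 FPKM in CBP cells and 36.0, 35.6 and 36.5 FPKM in WT cells (log2 change -1.04, SE 0.042, limma adjusted p = 5.83e-10). SMPX (ENSSSCG00000032720, chromosome X, 17889030 to 17938206), a small protein of the costamere, gave 2, 4 and 3 reads in CBP libraries and 45, 41 and 60 reads in WT libraries at 0h. After 60h it was at 0.362, 0.506 and 0.352 FPKM in CBP cells and 8.10, 7.98 and 7.96 FPKM in WT cells (log2 change -2.68, SE 0.074, limma adjusted p = 2.75e-11).

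The assembly chaperones and ligase adaptors fell together. All 6 fell at 0h (median log2 change -2.24), against 18.1% of all tested genes, and at 60h (median -1.83), against 27.0%. UNC45B (ENSSSCG00000017717, chromosome 12, 39997254 to 40031368), the muscle chaperone of the myosin head, stood at 38.9, 36.5 and 40.1 FPKM in CBP cells and 154, 156 and 162 FPKM in WT cells at 0h (log2 change -2.00, SE 0.036, limma adjusted p = 1.66e-12). By 60h its level was 83.4, 79.7 and 84.7 FPKM in CBP cells and 152, 152 and 155 FPKM in WT cells (log2 change -0.88, SE 0.036, limma adjusted p = 7.66e-10), or 54.0% of WT. SMYD1 (ENSSSCG00000008215, chromosome 3, 57866078 to 57918576), a muscle methyltransferase needed for thick filament assembly in zebrafish, stood at 0.541, 0.466 and 0.438 FPKM in CBP cells and 8.41, 8.24 and 8.43 FPKM in WT cells at 0h (log2 change -2.66, SE 0.056, limma adjusted p = 4.71e-12). At 60h SMYD1 stood at 4.005, 3.73 and 4.50 FPKM in CBP cells and 21.6, 20.4 and 20.5 FPKM in WT cells (log2 change -2.11, SE 0.056, limma adjusted p = 2.06e-11). KLHL40 (ENSSSCG00000011286, chromosome 13, 26202607 to 26211528), a kelch adaptor that stabilises nebulin and leiomodin 3, stood at 0.537, 0.485 and 0.445 FPKM in CBP cells and 10.0, 9.37 and 9.57 FPKM in WT cells at 0h (log2 change -2.84, SE 0.049, limma adjusted p = 1.20e-12). At 60h KLHL40 stood at 2.71, 2.69 and 2.66 FPKM in CBP cells and 19.3, 17.3 and 18.4 FPKM in WT cells (log2 change -2.39, SE 0.049, limma adjusted p = 2.78e-12). Of this class, KLHL40 and TRIM54 held the lowest share of WT at 60h, at 14.7% and 14.2%. KLHL41, a further nebulin-binding kelch protein, stood at 17.5% of WT at 0h and 33.7% at 60h. The reference table gives the identifier under which KLHL41 is listed to its neighbour BBS5, so its reads may belong in part to that gene. The MURF ligases TRIM54 and TRIM55, which bind titin and microtubules, stood at 6.88% and 23.1% of WT at 0h, and TRIM55 stood at 56.8% at 60h.

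Sarcomere assembly genes were mostly higher at 60h than at 0h in both arms. In CBP cells 30 of 35 were higher at 60h, against 31.3% of all tested genes, 3 were lower (MYL2, OBSL1 and TPM3), against 41.5%, and TCAP and LDB3 did not pass. LDB3 averaged 0.171 ± 0.0198 FPKM at 60h and 0.0920 ± 0.0249 FPKM at 0h in CBP cells, without overlap. For LDB3 limma gave a higher call with a pseudocount of 0.1 (log2 change 0.50, adjusted p = 0.0312), with TPM (0.26, adjusted p = 0.0382) and with voom (0.89, adjusted p = 0.0443). Their median log2 change was 0.95, and that of all tested genes was -0.06. In WT cells 21 were higher at 60h, against 28.8% of all tested genes, 6 were lower (TPM1, TPM2, MYL2, OBSL1, MYOM1 and KLHL41), against 38.0%, and 8 did not pass. The median was 0.43 for the members and -0.05 for all tested genes. Without LMOD2, ACTN3, TCAP and SMPX, 27 of 31 members were higher at 60h in CBP cells and 17 of 31 in WT cells. In CBP cells, large increases on the log2(FPKM + 1) scale were those of MYL4 (81.9 ± 3.61 FPKM at 60h and 1.82 ± 0.120 at 0h, log2 change 4.88, SE 0.059, limma adjusted p = 1.91e-14), ACTN2 (28.4 ± 1.23 FPKM at 60h and 0.465 ± 0.0510 at 0h, log2 change 4.33, SE 0.049, limma adjusted p = 1.42e-14) and ACTA1 (128 ± 5.30 FPKM at 60h and 8.10 ± 0.674 at 0h, log2 change 3.82, SE 0.056, limma adjusted p = 9.18e-14). As ratios of mean FPKM, which the added 1 does not dampen, these were 45.0 for MYL4, 61.1 for ACTN2 and 15.8 for ACTA1. The ratios of MYBPH, MYOT and MYOZ2 stood at 31.4, 26.7 and 21.8. In WT cells MYL4 (log2 change 2.70) and MYBPH (2.47) rose. In WT cells some abundant members did not pass the test between stages, among them ACTC1 at 3927 ± 69.6 FPKM at 60h and 3841 ± 140.2 FPKM at 0h (log2 change 0.03, SE 0.044, limma adjusted p = 0.537). With TPM, ACTC1 was called higher (log2 change 0.12, limma adjusted p = 0.0407). UNC45B did not pass either, at 153 ± 1.92 FPKM at 60h and 157 ± 4.34 FPKM at 0h (log2 change -0.04, SE 0.036, limma adjusted p = 0.344). The fall of MYL2 and OBSL1 over differentiation was shared by both arms. MYL2 had a log2 change of -0.95 in CBP cells and -0.79 in WT cells, and OBSL1 of -0.66 and -1.73.

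For most members, CBP cells at 60h stood below the level that WT cells held at 0h. Of the 35 tested members, 28 were lower in every CBP library at 60h than in every WT library at 0h, against 34.9% of all tested genes. The 28 include TPM3, MYL2 and OBSL1, which were lower at 60h than at 0h in CBP cells. Another 4 (MYL4, ACTN2, MYBPH and MYOT) were higher in every CBP library, against 42.9% of all tested genes, and ACTA1, MYLPF and ACTN3 overlapped. ACTN2 is a case of the second kind, with 28.4 ± 1.23 FPKM in CBP cells at 60h and 5.97 ± 0.0778 FPKM in WT cells at 0h. CSRP3 is a case of the first, with 33.0 ± 2.92 FPKM in CBP cells at 60h and 212 ± 4.50 FPKM in WT cells at 0h.

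The interaction, the CBP minus WT change at 60h minus that at 0h, tests whether the arm difference itself changed between stages. It was taken on log2(FPKM + 1), where the added 1 dampens changes of members at low levels. It was positive for 24 of 35 members, against 24.3% of all tested genes, and negative for 8, against 26.7%. MYL2, LDB3 and PDLIM3 did not pass. The 32 members called in either direction stand against 50.9% of all tested genes. Without LMOD2, ACTN3, TCAP and SMPX, 24 of 31 were positive and 4 were negative. Large positive values on this scale were those of ACTA1 (log2 change 3.40, SE 0.079, limma adjusted p = 5.74e-11), ACTN2 (log2 change 2.30, SE 0.069, limma adjusted p = 3.23e-10), MYL4 (log2 change 2.18, SE 0.083, limma adjusted p = 2.16e-09), MYLPF (log2 change 2.12, SE 0.054, limma adjusted p = 9.11e-11) and ACTC1 (log2 change 2.07, SE 0.062, limma adjusted p = 3.23e-10). By role, the interaction was positive for 5 of 7 thin filament genes, 4 of 5 thick filament genes, 4 of 4 M-band genes, 5 of 10 Z-disc genes, 1 of 3 adaptors and 5 of 6 chaperones and ligase adaptors. The negative values belonged to XIRP2 (log2 change -1.14, SE 0.070, limma adjusted p = 9.39e-08), TPM3 (log2 change -0.47, SE 0.035, limma adjusted p = 4.57e-07), LMOD2, SMPX, ACTN3, TCAP, TRIM54 and MYOT. With recovered read counts in limma-voom, XIRP2 and TPM3 kept a negative call, LMOD2, SMPX, ACTN3 and TCAP lost theirs, and MYOT and TRIM54 turned positive. Without any 1 WT library of 60h, LMOD2, ACTN3 and TCAP were no longer tested, and 5 or 6 negative calls were left among 32 members. With a pseudocount of 0.1 the sign turned positive for MYOT, TRIM54 and PDLIM3.

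Levels of related isoforms were also compared within each library. FPKM is scaled by gene length, so shares within a pair depend on the lengths used. Recovered with the reads, these were 6959 bases for MYL1 and 1100 for MYL4, and 3769 for ACTA1 and 1399 for ACTC1. In CBP cells at 60h, MYL1 held 5630 reads and MYL4 held 5092. Of 13 pairs listed, 11 had both genes, which gave 22 tests over the 2 stages. The ratios were taken as log2 with 1 added to each FPKM. The pairs of MYL3 with MYL1, MYOZ1 with MYOZ2 and MYBPC1 with MYBPC2 hold genes outside the test, with few reads, so that their ratios largely restate the other gene or rest on the added 1. The sign of TRIM54 over TRIM55 at 0h changed with a pseudocount of 0.1. These 4 pairs are not described further. Where the log2 ratios of a pair below did not overlap between arms, the test gave the smallest p that 3 against 3 allows (two-sided exact permutation test, p = 0.1). No test was under 0.05 after adjustment over the 22 (smallest adjusted p = 0.116, exact permutation test). MYL4 made up 84.5% to 85.7% of MYL4 plus MYL1 in CBP cells and 48.9% to 52.6% in WT cells at 60h. At 0h its share was 45.7% to 53.3% in CBP cells and 25.5% to 28.4% in WT cells. The atrial and embryonic form thus held a larger share of this pair in CBP cells than in WT cells at both stages. MYL2 made up 7.86% to 8.34% of MYL2 plus MYLPF in CBP cells and 27.6% to 30.2% in WT cells at 60h. At 0h the share was 53.17% to 56.28% in CBP cells and 52.61% to 53.15% in WT cells, just short of overlap. With 1 added to each FPKM, the log2 ratios of the arms overlapped (two-sided exact permutation test, p = 0.2). ACTA1 made up 0.963% to 1.15% of ACTA1 plus ACTC1 in CBP cells and 3.14% to 3.26% in WT cells at 0h, and 3.56% to 3.91% in CBP cells and 4.08% to 4.27% in WT cells at 60h. Both actin shares may depend on how reads of these closely related actin genes were assigned. ACTN2 held most of ACTN2 plus ACTN3 in all libraries, at 98.8% to 99.3% in CBP cells and 93.8% to 94.8% in WT cells at 60h. The ACTN3 level behind this pair rests on few reads in CBP cells. KLHL40 held 5.95% to 6.21% of KLHL40 plus KLHL41 in CBP cells and 12.7% to 13.4% in WT cells at 60h.

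**Figure D4:**
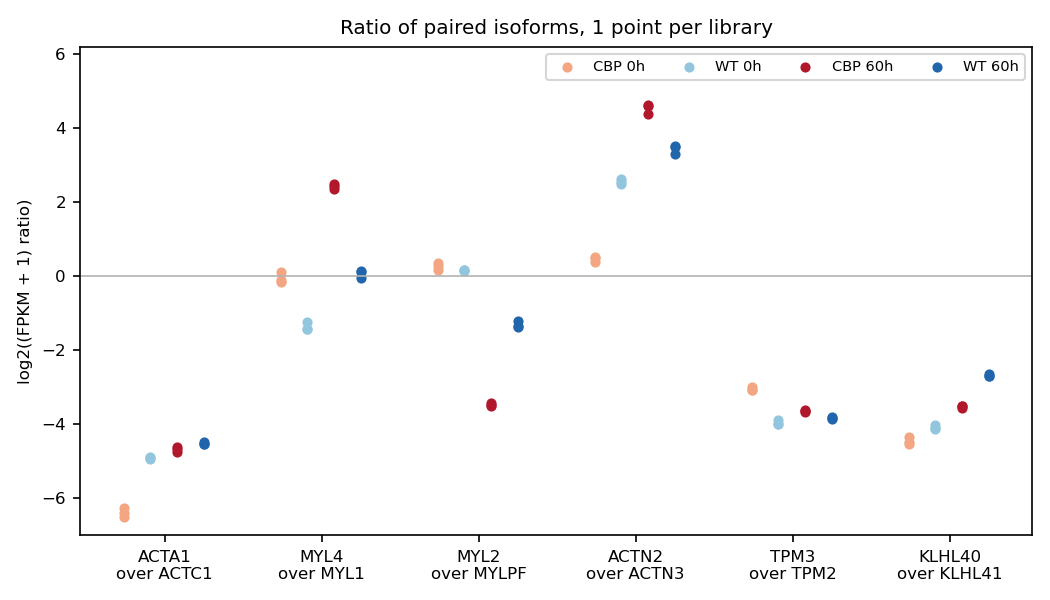
Log2 ratio of paired isoforms, with 1 added to each FPKM, for 6 pairs, with 1 point per library coloured by group. A value of 0 is an equal FPKM of both genes, which depends on the gene lengths used. At 60h the MYL4 to MYL1 ratio was higher in CBP cells than in WT cells and the MYL2 to MYLPF ratio was lower, while at 0h the arms overlapped for MYL2 to MYLPF.

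The 7 untested members stayed at low levels in all groups. MYL3, the slow and ventricular essential light chain, the myosin-binding proteins MYBPC1 and MYBPC2, the skeletal light chain kinase MYLK2, the tropomodulin TMOD4 and the calsarcin MYOZ1 reached at most 0.548 FPKM in any library. MYBPC1 gave 2, 3 and 3 reads in CBP libraries and 17, 21 and 22 reads in WT libraries at 60h. NRAP, a scaffold of immature myofibrils that binds actin and nebulin, had the highest mean over the 12 libraries among them and was higher in every CBP library than in every WT library of the same stage. It stood at 0.329, 0.459 and 0.390 FPKM in CBP cells and 0.294, 0.314 and 0.309 FPKM in WT cells at 0h. At 60h NRAP stood at 1.13, 1.21 and 0.994 FPKM in CBP cells and 0.721, 0.746 and 0.649 FPKM in WT cells. In a fit without the filter on low values, over 22521 genes, its log2 change was 0.31 at 60h (limma adjusted p = 4.28e-04) and 0.09 at 0h (limma adjusted p = 0.199). In that fit MYLK2 (log2 change -0.30, limma adjusted p = 1.75e-04), MYBPC1 (-0.19, adjusted p = 1.86e-06) and MYOZ1 (-0.19, adjusted p = 0.0113) were lower in CBP cells at 60h. TMOD4 was higher at 0h (0.30, limma adjusted p = 0.00428), and MYL3 and MYBPC2 did not pass at either stage.

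Other genes of the sarcomere and its Z-disc, from a second list, were also mostly lower in CBP cells. Of 17 tested of 24 listed, 13 fell and 2 rose at 0h (median log2 change -0.59), where 18.1% of all tested genes fell and 44.2% rose. At 60h, 15 fell and 1 rose (median -0.63), where 27.0% of all tested genes fell and 44.7% rose. SYNPO2L, a Z-disc actin-binding protein, averaged 37.6 ± 2.11 FPKM in CBP cells and 114 ± 0.367 FPKM in WT cells at 0h (log2 change -1.57, SE 0.044, limma adjusted p = 6.97e-11). CRYAB, a small heat shock protein that protects desmin and titin, averaged 149 ± 12.8 FPKM in CBP cells and 430.1 ± 13.4 FPKM in WT cells at 60h (log2 change -1.53, SE 0.049, limma adjusted p = 9.34e-11), and NEXN, an actin-binding Z-disc protein, averaged 61.3 ± 3.93 FPKM in CBP cells and 166 ± 5.35 FPKM in WT cells (log2 change -1.43, SE 0.040, limma adjusted p = 3.03e-11). HSPB7, a small heat shock protein of heart and skeletal muscle, averaged 0.150 ± 0.0358 FPKM in CBP cells and 2.76 ± 0.243 FPKM in WT cells at 60h (log2 change -1.71, SE 0.075, limma adjusted p = 1.36e-09). HSPB7 passed the filter only through its WT libraries, so this call is not independent of the filter. TMOD2, the neuronal tropomodulin, entered the test only through the CBP libraries at 60h, where it was high. It rose in CBP cells at both stages, to 2.45 ± 0.202 FPKM in CBP cells against 0.423 ± 0.0314 FPKM in WT cells at 60h (log2 change 1.28, SE 0.067, limma adjusted p = 6.65e-09).

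Of the non-muscle counterparts of the members, 15 of 17 listed were tested. At 0h, 7 fell, against 18.1% of all tested genes, and 4 rose, against 44.2% (median log2 change -0.07). At 60h, 11 fell, against 27.0%, and 2 rose, against 44.7% (median -0.35). The non-muscle alpha-actinin ACTN1 averaged 255 ± 7.46 FPKM in CBP cells and 260.4 ± 12.8 FPKM in WT cells at 0h (log2 change -0.03, SE 0.039, limma adjusted p = 0.506), and 233 ± 6.17 FPKM in CBP cells and 283 ± 8.73 FPKM in WT cells at 60h (log2 change -0.28, SE 0.039, limma adjusted p = 3.65e-05). UNC45A, the general paralog of UNC45B, did not pass at either stage (limma adjusted p = 0.24 at 0h and 0.0988 at 60h). The regulatory light chain MYL9 of smooth muscle and non-muscle cells fell at both stages (log2 change -0.91 at 0h and -0.90 at 60h).

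Transcription factors that act on sarcomere genes were lower in CBP cells at 0h, in 9 of 11 tested, against 18.1% of all tested genes (1 rose, against 44.2%, median log2 change -0.63). At 60h, 7 fell, against 27.0%, and 3 rose, against 44.7% (median -0.39). MYOG, which drives terminal differentiation of myoblasts, averaged 28.5 ± 0.996 FPKM in CBP cells and 343 ± 10.0 FPKM in WT cells at 0h (log2 change -3.54, SE 0.032, limma adjusted p = 7.38e-15), and 448 ± 9.50 FPKM in CBP cells and 589 ± 13.2 FPKM in WT cells at 60h (log2 change -0.39, SE 0.032, limma adjusted p = 3.09e-07). MEF2C, a partner of the myogenic factors, averaged 11.6 ± 0.813 FPKM in CBP cells and 35.3 ± 1.34 FPKM in WT cells at 0h (log2 change -1.53, SE 0.049, limma adjusted p = 2.18e-10), and 30.8 ± 1.07 FPKM in CBP cells and 69.6 ± 2.69 FPKM in WT cells at 60h (log2 change -1.15, SE 0.049, limma adjusted p = 9.46e-10). MYOD1, the factor of myoblast commitment, fell at both stages (log2 change -1.61 at 0h and -0.54 at 60h), and so did MYF6 (-1.14 at 0h and -1.42 at 60h). SRF, the factor that binds actin gene promoters, fell by 0.29 on the log2 scale at 0h and did not pass at 60h (log2 change -0.09, SE 0.040, limma adjusted p = 0.0722), while its coactivator MRTFA rose at 60h (log2 change 0.77, SE 0.053, limma adjusted p = 7.41e-08).

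Markers of other cell types also differed between the arms. Their counts stand against 18.1% of all tested genes lower and 44.2% higher at 0h, and 27.0% lower and 44.7% higher at 60h. These shares are without rescaling, and median-of-ratios scaling raised the lower ones and cut the higher ones. Of 12 smooth muscle and pericyte markers, 12 fell at 0h and 9 fell and 1 rose at 60h, and their summed level was 1489 to 1539 FPKM in CBP cells and 3780.2 to 3927 FPKM in WT cells at 0h, and 2729 to 2928 FPKM in CBP cells and 4062 to 4085 FPKM in WT cells at 60h. ACTG2 (log2 change -2.59 at 0h and -3.21 at 60h) and CNN1 (-2.06 and -1.95) had the largest changes at 0h. The abundant ACTA2 and TAGLN weigh most in that sum, with ACTA2 at 819 ± 26.8 and TAGLN at 608 ± 5.40 FPKM in CBP cells at 0h. In the fibroblast list, COL1A2 alone averaged 1124 ± 9.04 FPKM in CBP cells and 1909 ± 53.1 FPKM in WT cells at 0h. Of 10 fibroblast markers, 8 fell at 0h, and 5 fell and 3 rose at 60h, with sums of 1738 to 1766 FPKM in CBP cells and 3017 to 3142 FPKM in WT cells at 0h, and 4824 to 5179 FPKM in CBP cells and 6554 to 6859 FPKM in WT cells at 60h. Fibroblast markers furthest below WT at 60h were FBLN2 (log2 change -4.11), POSTN (-3.39) and DPT (-3.23), while PDGFRA, COL3A1 and LUM rose. Of 7 satellite cell and myoblast markers tested, 7 fell at 0h, and 3 fell and 3 rose at 60h, among them PAX7, at 12.3 ± 1.11 FPKM in CBP cells and 7.57 ± 0.158 FPKM in WT cells at 60h. MYOD1 and MYOG are also among the transcription factors above, LMOD1 is in both the smooth muscle and the second sarcomere list, and ACTA2 and TAGLN are known from immature skeletal muscle too. The part of these markers in the results for the sarcomere genes was not tested. Of the cardiomyocyte markers, HAND2 passed the filter and fell at both stages, while NKX2-5, NPPB and GATA4 averaged at most 0.0478 FPKM in any group. The untested TNNI3 and TBX5 averaged 0.233 and 0.319 FPKM in CBP cells and 0.0740 and 0.220 FPKM in WT cells at 60h. MYBPC3, also untested, averaged 0.0302 FPKM in CBP cells and 0.159 FPKM in WT cells at 60h. Summed endothelial markers were 3.52 to 3.64 FPKM in CBP cells and 3.53 to 3.97 FPKM in WT cells at 0h. At 60h they were 1.17 to 1.25 FPKM in CBP cells and 1.80 to 2.23 FPKM in WT cells at 60h, where PECAM1 fell (log2 change -0.39, SE 0.089, limma adjusted p = 0.00192). Summed cardiomyocyte markers were 2.76 to 2.87 FPKM in CBP cells and 6.07 to 7.07 FPKM in WT cells at 0h. HAND2 alone averaged 2.39 ± 0.0510 FPKM in CBP cells and 6.24 ± 0.558 FPKM in WT cells there, so this sum largely restates 1 gene. At 60h the summed cardiomyocyte markers were 2.17 to 2.64 FPKM in CBP cells and 3.16 to 3.80 FPKM in WT cells. Of the immune markers, CD3E and LYZ averaged 0 in all groups, and CD68 rose in CBP cells at 60h (log2 change 0.65). Summed immune markers were 4.09 to 5.02 FPKM in CBP cells and 3.65 to 4.35 FPKM in WT cells at 0h, where CD68 alone averaged 4.38 ± 0.534 and 3.99 ± 0.327 FPKM. The 60h sums of the immune markers were 2.63 to 2.71 FPKM in CBP cells and 0.932 to 1.78 FPKM in WT cells.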

How the data were processed

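The VAHTS Universal V8 kit was used to make RNA-seq libraries from total RNA, per the labels' protocols. Trimmomatic, featureCounts and the build Sscrofa11.1 are named in the submitters' processing notes. For aligner, annotation release and strand setting, the entry is: not given in the sources used here. Antisense or overlapping genes may therefore share reads. The authors deposited FPKM values for 31908 genes in 12 libraries, 1 column each, with no pooling. Gene names came from that table and, for 687 identifiers, from the RefSeq-based pig reference table.

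From the deposited FPKM, genes at 1 or more in at least 3 libraries were kept (11636), and log2(FPKM + 1) entered a limma fit (version 3.58.1, R 4.3.3) of 4 group means to the 12 libraries with a trended prior variance. The 5 comparisons were CBP against WT at 0h and at 60h, 60h against 0h in CBP and in WT, and the interaction. Tests were two-sided, with Benjamini-Hochberg adjustment over the 11636 genes and a threshold of 0.05. Isoform ratios were tested with exact permutation tests in SciPy 1.17.1 under Python 3.11.15. The scripts were tested on simulated data.

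The deposited values are whole multiples of what 1 read is worth. Whole reads were recovered for all 22521 genes above 0, within 0.001 reads for 22508 and within 0.02 for 13. They gave the library totals, 16095335 to 19155240, and 1 alternative with limma-voom, added after seeing the data, which called 2164 genes lower and 5230 higher at 0h, and 3167 lower and 5255 higher at 60h. Replicates differed beyond counting noise, with a chi-square per gene of 2.16 to 4.70, so none was counted as a repeat deposit.

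Members, lists and tests were chosen with earlier results of these data known. Library values are given for the members with the highest mean, the largest change at 0h or 60h or the largest interaction in their role, and for ACTA1, ACTC1, NEB, DES, ACTN2, MYL4, UNC45B and SMYD1. From the other lists, some genes with large changes were named, but not all, together with MYOD1, MYOG, MEF2C, SRF and ACTA2. ACTN1, UNC45A, MYF5, MYF6 and the fibroblast genes, and the library values of TPM3 and NRAP, were added after their values were seen. The alternatives were another pseudocount, no filter, TPM, median-of-ratios and quantile scaling, fits of only the groups compared, a replicate block and leaving out each replicate.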

Additional observations from a re-analysis of the deposited data

Results flagged for a closer look

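For 32 of the 35 tested sarcomere assembly genes, the CBP effect differed between 60h and 0h by the limma interaction test, against 50.9% of all tested genes. With voom on recovered reads, MYOT and TRIM54 turned positive, and LMOD2, SMPX, ACTN3 and TCAP lost their calls. These last 4 entered the test only through high WT values at 60h, so their negative values are not independent of that filter. Among the other 31 members, 24 were positive and 4 were negative. The values below are the log2 CBP effect at 60h minus that at 0h, on log2(FPKM + 1). The added 1 dampens changes of members at low levels, so values cannot be ranked across members of unlike level. MYOM2, at 0.89, went from 5.54% of the WT mean at 0h to 47.3% at 60h. MYOT and TRIM54 have negative values here, though their share of the WT mean rose from 6.77% to 28.0% and from 6.88% to 14.2%. Thin filament genes stood at 3.40 for ACTA1, 2.07 for ACTC1, 1.36 for NEB, 0.52 for TPM1, 0.25 for TPM2, -0.47 for TPM3 and -1.85 for LMOD2. Thick filament genes stood at 2.18 for MYL4, 2.12 for MYLPF, 1.32 for MYBPH and 1.13 for MYL1. M-band genes stood at 1.06 for OBSL1, 0.89 for MYOM2, 0.86 for MYOM1 and 0.37 for MYOM3. Z-disc genes stood at 2.30 for ACTN2, 1.40 for MYOZ2, 1.07 for CSRP3, 0.62 for MYPN, 0.61 for DES, -0.29 for MYOT, -0.40 for TCAP and -0.89 for ACTN3. The adaptors stood at 0.35 for XIRP1, -1.14 for XIRP2 and -1.83 for SMPX. The chaperones and ligase adaptors stood at 1.12 for UNC45B, 1.11 for TRIM55, 0.93 for KLHL41, 0.55 for SMYD1, 0.45 for KLHL40 and -0.51 for TRIM54. TPM2 lost its call after quantile scaling (0.04, limma adjusted p = 0.6), and MYL2 gained one there (-0.24, limma adjusted p = 0.0299).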

How the results depend on the processing

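The counts of members lower in CBP cells at 0h and 60h, higher at 60h in either arm, and with a positive interaction stayed within 1.5 times their main values under every alternative run. Of 3410 member values recomputed, 3337 kept their direction and side of the threshold, 22 lost a call, 17 gained one and 34 changed sign, and the causes were not tested. Interaction signs changed for MYOT (1.26 with pseudocount 0.1, 0.38 with TPM, 1.99 with voom on recovered reads), TRIM54 (0.59 with pseudocount 0.1 and 1.06 with voom) and PDLIM3 (0.55, 0.25 and 0.72 with pseudocount 0.1, TPM and voom). The number of negative interactions was 8, 5 with pseudocount 0.1 and 2 with voom. CBP against WT at 60h changed sign for ACTN2 (-0.081 after median-of-ratios and -0.024 after quantile scaling), ACTC1 (0.0049, quantile) and TPM1 (0.0064, quantile). For 60h against 0h in WT, TPM gave 0.050 for TPM3, 0.059 for MYPN, 0.061 for LDB3, 0.066 for XIRP1 and 0.043 for UNC45B. Median-of-ratios scaling gave 0.034 for TPM3, 0.042 for MYPN, 0.035 for LDB3, 0.049 for XIRP1 and 0.027 for UNC45B. ACTC1 and DES gained a WT stage call with TPM (0.117, limma adjusted p = 0.0407, and 0.157, limma adjusted p = 0.0425), and DES also after quantile scaling (0.194, limma adjusted p = 0.0435). Quantile scaling gave 0 for ACTC1, 0.091 for TPM2, 0.0199 for MYPN, 0.0127 for XIRP1 and 0.079 for UNC45B. Because this scaling gives equal ranks the same value, its results for the very abundant ACTC1 can come from the scaling itself. Leaving out 1 library gave -0.0601 to 0.0125 for MYPN, -0.0598 to 0.041 for LDB3, -0.12 to 0.0028 for MYOM2 and -0.0122 to 0.13 for DES. The WT stage call of CSRP3 was lost in 8 of the 12 fits that left out 1 library. Among isoform ratios, MYBPC1 over MYBPC2 at 0h ran from -0.073 to 0.028 without 1 library, and TRIM54 over TRIM55 at 0h turned to -1.21 with pseudocount 0.1.

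Whether replicate numbers pair the samples was not settled. Deviations of same-numbered libraries correlated at -0.0935 to 0.082, and 0 of 18 exceeded 0.1, against 3 of 36 for differently numbered libraries. Such weak correlations cannot tell paired from unpaired samples. With the replicate number as a block, 33 members fell at 0h, 31 fell at 60h, 21 were higher at 60h in WT, 30 in CBP and 24 had a positive interaction, and MYL2 gained a negative interaction (-0.16, limma adjusted p = 0.0174). Over all tested genes the block gave 7182 calls at 0h, against 7250 without it. Depth limits members with few reads, such as TCAP, SMPX and LMOD2 in CBP cells.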
